A study of Mus musculus with 6 samples.

Results

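The duplex methylated block of the Gli R6 library was compared with the unmethylated block of the same library, over all 64 sequences of 3 varied bases in each block. These blocks are 2 of the 4 in the R6 binding reaction, which lists 256 sequences of the 2094 in the series. All blocks were mixed with recombinant mouse Gli (Gli1 in the titles) in 1 binding reaction, and were told apart by barcodes. DNA that ran with the protein on a gel (bound) and DNA that ran without it (unbound) was recovered, amplified by at least 8 PCR cycles and sequenced as 1 library each. The labels call the DNA of the other blocks top-strand hemimethylated and treated with M.SssI, the bacterial enzyme that methylates the C of CpG. The headings do not say which bases of the duplex block carry the methyl group, nor in which direction its 3 bases are listed. Results are therefore given with the bases as listed and with the 3 bases of the duplex block reversed, so that GAT of the unmethylated block is set against the line listed as TAG.

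Gli proteins are the zinc finger transcription factors that carry the output of Hedgehog signalling to DNA. Their zinc fingers read adjacent groups of bases along a long site, and the fingers toward the carboxy-terminal end of the array make most of the base contacts. Methylated C carries a methyl group in the major groove, the face of DNA that zinc fingers read, and can therefore raise or lower binding according to its place in the site. The assay, known as Spec-seq, reads the relative affinity of each sequence from the ratio of its bound to its unbound reads, and its methylated version sets the same sequences side by side with and without methylated C.

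The sequences below show where the varied bases lie, with these bases in capitals. The first gives the most frequent base at each position of the 16-base sequences of the series, counted from 1 at its first base. The others are 7-base sequences of the R4-R6 reaction with C at position 10, as in R6. They show the strongest unmethylated sequence (GTT), a sequence with CpG formed on both sides of the window (GAC), and the line listed as strongest in the duplex block (TAG) with its reversal (GAT).
Most frequent bases: gaccacccaaGATgaa
Strongest unmethylated: cGTTgaa
CpG on both sides: cGACgaa
Listed as strongest in the duplex block: cTAGgaa
Reversal of that line: cGATgaa
This placing rests on the R4-R6 reaction, in which R6 log ratios followed those of the 7-base sequences that start with C and end in GAA (r = 0.996 over 64 sequences, as a description). The characteristics of the R4-R6 samples name a CTCF library instead, so the placing relies on their titles and headings. R6 thus covers positions 11 to 13, after a fixed C at position 10 and before a fixed G at position 14. A G at position 11 completes a CpG with the fixed C, and a C at position 13 begins one with the fixed G.

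The duplex block was the shallowest of the reaction, with 8257 bound and 9273 unbound reads against 114228 and 40596 in the unmethylated block. A duplex sequence had 24 to 351 bound and 43 to 402 unbound reads, so all 64 passed the minimum of 10 reads in each count. The median counting standard error (SE) of a log ratio was 0.13 in the duplex and 0.05 in the unmethylated block, on the natural log scale used throughout. With 1 library per fraction there is no replicate, and no p-value was computed. Errors and intervals cover counting only and take each counted read as separate. Whether PCR copies of a molecule were removed before counting is not given. An offset shared by all sequences of a block cannot be told apart from its barcode or preparation.

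The duplex block had a smaller share of bound reads than the unmethylated block. Bound reads made up 47.1% of the duplex block (exact Clopper-Pearson 95% interval 46.4 to 47.8) and 73.8% of the unmethylated block (73.6 to 74.0). In the hemimethylated block the share was 54.5%, and in the M.SssI block it was 66.0%, so the duplex block had the lowest share of the 4. The ratio of summed bound to summed unbound reads was 0.890 in the duplex and 2.81 in the unmethylated block. A sequence was called changed past 2-fold and past 2 counting SE. With bases as listed 47 of 64 sequences (73.4%) were called lower and 6 (9.38%) higher, and with the duplex bases reversed 49 (76.6%) were called lower and 0 (0%) higher. Since the comparison covers the whole block, these shares are also its background. Once the median change of sequences without CpG was subtracted, 13 were lower and 17 higher as listed, and 13 lower and 7 higher when reversed. At a difference past 2 counting SE alone, 50 sequences were lower and 7 higher as listed, and 59 were lower and 0 higher when reversed.

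The fall appeared in sequences that read the same in both directions. Their values are identical as listed and reversed, though not under other orders of the bases or for the complement of the bases. Among the 16 sequences with the same first and last base, 12 were called lower and 0 higher, and the median change was -1.42, a 4.13-fold fall. ACA fell from a ratio of 1.63 to 0.227, with 54 bound and 238 unbound duplex reads, a change of -1.96 ± 0.16 (counting SE). CAC fell from 1306 bound and 261 unbound reads to 211 and 287, a change of -1.92 ± 0.11, and CTC from 3.02 to 0.471, a change of -1.86 ± 0.13. The 4 sequences with A at both ends changed by -1.96 to -1.42 and the 4 with C by -1.92 to -1.43, so every one of these 8 fell by more than 4-fold. Those with T at both ends changed by -1.42 to -0.52.
Sequences with G at both ends had the smallest median change of the 4 groups, at -0.18. GAG had a ratio of 3.93 in the duplex block (181 bound and 46 unbound reads) and 3.15 in the unmethylated block, a difference of 0.21 ± 0.17 that lay within 2 counting SE. GCG had 2.83 and 2.56, a difference of 0.10 ± 0.13, likewise within counting error. GGG changed by -0.45 ± 0.17, and GTG by -1.20 ± 0.19, from 7.29 to 2.21. The groups with G and with T at both ends overlapped, while the 4 with G lay above all 8 with A or C at both ends.

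The remaining 48 sequences form 24 mirror pairs, such as GAT and TAG, whose summed counts are likewise the same as listed and reversed. Summed over a pair, 17 of 24 were called lower and 0 higher, with a median change of -1.16 (3.20-fold). The pair AGC and CGA had the largest fall, from 3515 bound and 873 unbound reads to 191 and 329, a change of -1.94 ± 0.10. The pair GCT and TCG changed by 0.00 ± 0.09, with 371 bound and 197 unbound duplex reads.

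Within the duplex block, the strongest sequences all ended in G as listed. The 12 strongest sequences did so, and the 16 sequences that end in G had ratios from 0.940 to 6.20 with a median of 3.19. The other 48 ran from 0.168 to 1.44, with a median of 0.698. The mean log ratio of sequences ending in G exceeded that of the rest by 1.45, or 4.26-fold. TAG led with 279 bound and 45 unbound reads, a ratio of 6.20 (95% interval 4.51 to 8.70). TTG followed at 5.88, TCG at 4.56, ATG at 4.10 and GAG at 3.93. These 4 lay within 2 counting SE of TAG, so the order among the leading 5 was not resolved. None of the 63 neighbouring steps in the order of the block exceeded 2 counting SE.
At the bottom of the order stood CCA, with 44 bound and 262 unbound reads and a ratio of 0.168. ACA at 0.227, GCA at 0.231, CCC at 0.231 and GGA at 0.242 came next, and lay within 2 counting SE of CCA. From CCA to TAG the duplex block spanned 36.2-fold, against 15.2-fold in the unmethylated block.

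In the unmethylated block it was G as the first base that marked the strongest sequences. The 7 strongest began with G, led by GTT at 12.3, GTC at 11.9 and GAC at 11.4. Sequences beginning with G had a median ratio of 5.28, and the other 48 a median of 2.78, a difference of 0.90 in mean log ratio. G as the last base was unfavourable there, at -0.71 against the rest, and G as the first base of the duplex block at -0.24.
Mirror pairs show this reversal within each block. In the duplex block, the member with G last exceeded its mirror with G first in 12 of 12 pairs that have a G at 1 end, by 0.54 to 2.72, each beyond 2 counting SE. In the unmethylated block the member with G last was the lower in 12 of 12 pairs, by -2.07 to -1.15. The hemimethylated block went the same way as the unmethylated block in 12 of 12. In the M.SssI block 7 pairs had the member with G last lower and 5 had it higher, 4 of the 5 being pairs of G with C, whose other member ends in C.
The largest contrasts were between ACG and GCA, where the first exceeded the second by 2.72 ± 0.23 in the duplex block and lay below it, at -1.15 ± 0.07, in the unmethylated block. AAG exceeded GAA by 2.42 ± 0.22, against -2.07 ± 0.09 unmethylated, and ATG exceeded GTA by 2.24 ± 0.22, against -1.31 ± 0.07. All 12 pairs with a G at 1 end therefore had opposite signs in the duplex and unmethylated blocks. Of the 12 pairs without G, 4 did, 3 of them pairs of C with T. Each of these 3 lay within 2 counting SE of 0 in at least 1 of the blocks. TCC less CCT was at 0.48 ± 0.19 in the duplex and -0.12 ± 0.08 in the unmethylated block. TGC less CGT was at 0.27 ± 0.19 and -0.03 ± 0.06, and TTC less CTT at 0.17 ± 0.18 and -0.25 ± 0.07. The remaining pair, TAA less AAT, was beyond 2 counting SE in both, at -0.55 ± 0.17 and 0.31 ± 0.08.
Pairs of A with C kept the same sign in both blocks. In 4 of 4, the member with A last was the lower in the duplex block, at -1.48 to -0.95, and also in the unmethylated block, at -0.88 to -0.29.

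The middle base holds its place in both readings. In the duplex block, sequences with A or T in the middle had mean log ratios of 0.07 ± 0.85 and 0.03 ± 0.77 (SD over 16 sequences), against -0.31 ± 0.64 for G and -0.50 ± 1.02 for C. In the unmethylated block the means were 1.27 for A, 1.41 for T, 1.10 for G and 0.38 for C. C had the lowest mean in both blocks. The step from C to the highest base was 0.57 in the duplex and 1.03 in the unmethylated block. Among duplex sequences that end in G as listed, C in the middle was not below G throughout. TCG, ACG and GCG had ratios of 4.56, 3.55 and 2.83, against 3.81, 1.29 and 0.972 for TGG, AGG and GGG. CCG was at 0.940 and CGG at 0.977. By middle base, the mean change was -0.88 for C, -1.20 for A, -1.38 for T and -1.41 for G, with SDs over sequences of at least 0.56 in either reading.

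With bases as listed, the largest falls were in sequences that begin with G and the rises in sequences that end with G. GAA fell from a ratio of 10.4 to 0.323, with 41 bound and 127 unbound duplex reads, a change of -3.46 ± 0.20 or 31.8-fold. GTA fell 23.2-fold, GGC 18.3-fold, GCA 17.1-fold and GAC 15.0-fold. These are the largest falls among sequences with at least 30 reads in each count. GGA, with 24 bound duplex reads, was below that minimum and fell 21.4-fold. TCG rose from 0.891 to 4.56, a change of 1.63 ± 0.14 or 5.08-fold. TAG rose 3.87-fold, TTG 3.56-fold, TGG 3.22-fold and AAG 2.82-fold. The sixth sequence called higher, ACG, rose 2.79-fold. All 6 end in G.
In this reading the 16 sequences with G at position 13 had a mean change of 0.40 ± 0.77 (SD), and 1 was called lower. With A, C or T at position 13 the means were -2.07, -1.71 and -1.48, and 16, 16 and 14 of 16 were called lower. Sequences with G at position 11 had a mean change of -2.08 ± 1.15. Over all sequences, r between the duplex and unmethylated log ratios was -0.141, and the changes had an SD of 1.18, against a median counting SE of 0.14.

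With the duplex bases reversed, 59 sequences fell by more than 2 counting SE and none rose by as much. The SD of the changes was 0.68 and r was 0.633, with a slope of duplex on unmethylated log ratio of 0.76. Sequences are not independent replicates in these values, and the reversed reading was chosen with the correlations known. ATC fell from 6.22 to 0.344, with 63 bound and 183 unbound duplex reads, a change of -2.89 ± 0.16 or 18.0-fold. AGC fell 14.7-fold, AAC 11.9-fold, ACC 9.23-fold and GTC 8.22-fold. These 5 are all sequences that end in C, and 4 of them begin with A.
The highest changes in this reading were GAG at 0.21 ± 0.17, GCT at 0.18 ± 0.15, GCG at 0.10 ± 0.13, GCA at -0.12 ± 0.12 and GGT at -0.22 ± 0.17. All 5 lay within 2 counting SE of 0, and all begin with G. GCT kept a ratio of 4.56, against 3.77 unmethylated.
By base, C at position 13 and A at position 11 went with the deepest falls. The mean change was -1.89 ± 0.50 (SD) for C at position 13, and 16 of 16 such sequences were called lower, against means of -1.07, -0.87 and -1.03 for A, G and T. It was -1.85 ± 0.49 for A at position 11, with 16 of 16 called lower, against -1.19 for C, -0.81 for G and -1.01 for T. G at position 11 had the smallest fall, and 9 of 16 were called lower.

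Libraries of this kind address how methylation of a CpG at each place in a site changes binding, so the changes were also grouped by where a CpG falls, with the fixed neighbours counted. In the reversed reading, the 11 sequences whose only CpG has its C at position 13 changed by a median of -1.86 ± 0.55 (SD), a 6.40-fold fall, and 11 of 11 were called lower. The 30 sequences without CpG changed by -1.13 ± 0.49, and 23 of them were called lower. The ranges overlapped, from -2.89 to -1.17 with the CpG and from -1.97 to -0.24 without. Relative to sequences without CpG the class thus lay at -0.73. In the M.SssI block the same 11 sequences changed by -1.92 ± 0.37 and those without CpG by 0.15 ± 0.06.
The 11 sequences whose only CpG has its C at position 10 changed by a median of -0.45 ± 0.55 in the reversed reading, from -1.41 to 0.21, and 5 were called lower. This median of all 11 was a smaller fall than in sequences without CpG, by 0.68. With at least 50 reads in each count, the median was -0.74 in 7 of them and -1.04 in 26 sequences without CpG. This minimum acts on the duplex counts that form the ratio, so it is no separate check of the class. GAG, GAT, GGT and GTG were left out by it, through unbound duplex counts of 46, 45, 48 and 43. With or without the minimum, the sign of this class depends on whether the shift of sequences without CpG is removed. In the M.SssI block these sequences changed by -0.62 ± 0.20, below those without CpG. All of them begin with G.
The 4 sequences with CpG on both sides fell by a median of -1.82 in the reversed reading. GTC changed by -2.11 ± 0.13, GAC by -1.94 ± 0.14, GGC by -1.69 ± 0.13 and GCC by -1.13 ± 0.11. In the M.SssI block their median was -2.96. The 3 with CpG at position 11, CGA, CGG and CGT, changed by -1.40 to -1.37, and the 3 with CpG at position 12, ACG, CCG and TCG, by -1.69, -0.94 and -0.35. The median of the latter lay 0.19 above that of sequences without CpG, so its sign also turns with centring. CGC, with CpG at positions 11 and 13, changed by -1.83 and GCG, with CpG at positions 10 and 12, by 0.10.

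With bases as listed, the classes took another order. CpG at position 13 changed by a median of -1.43 ± 0.38, close to the -1.36 ± 1.06 of sequences without CpG. CpG at position 10 changed by -2.35 ± 1.17, with 9 of 11 called lower, and CpG on both sides by -2.68. CpG at position 12 had a median change of 1.02, with TCG at 1.63, ACG at 1.02 and CCG at 0.06. When GCG, which also has a CpG at position 10, was counted with these, the median of the 4 was 0.56. CpG at position 11 changed by -1.67, with values from -2.32 to -0.18.
In either reading, sequences without CpG were more uneven in the duplex block than in the others. The SD of their changes was 1.06 as listed and 0.49 reversed, at a median counting SE of 0.15 and 0.14. It was 0.24 in the hemimethylated block, whose median change was -0.91, and 0.06 in the M.SssI block, which equals its counting SE of 0.06. The duplex sequences without CpG were lower by a median of 3.88-fold as listed and 3.10-fold reversed.

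The presence of G at position 11 and of C at position 13 can be set out together in the reversed reading. Median ratios here are medians of log ratios, turned back into ratios. The 12 sequences with this G and without this C had a median duplex ratio of 3.72, against 4.98 unmethylated. Adding C at position 13 (4 sequences) gave 1.19 in the duplex and 7.75 in the unmethylated block. Without the G, the medians were 0.404 against 3.57 for 12 sequences with C at position 13, and 0.742 against 2.63 for the other 36. By these medians, C at position 13 went with the higher unmethylated and the lower duplex ratio, with and without G at position 11. As listed, the duplex medians of these 4 sets lay between 0.509 and 0.796. The sets without C at position 13 pool A, G and T there. In the unmethylated block, mean log ratios by base at position 13 were 1.27 ± 0.74 (SD) for C, 1.20 ± 0.67 for T and 1.18 ± 0.63 for A. For G the mean was 0.51 ± 0.53, so unmethylated C stood apart from G but hardly from A or T.

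Against the other modified blocks, the duplex block lay below both in the median. In the reversed reading it was below the M.SssI block by a median of -0.75, with 33 sequences (51.6%) called lower and 8 (12.5%) higher. It was below the hemimethylated block by -0.41, with 17 (26.6%) lower and 4 (6.25%) higher. As listed, 31 (48.4%) were lower and 15 (23.4%) higher than in the M.SssI block, and 27 (42.2%) lower and 13 (20.3%) higher than in the hemimethylated block. Correlations of the reversed duplex log ratios were 0.621 with the hemimethylated and 0.450 with the M.SssI block, as descriptions over 64 sequences of shared libraries. With the R6 block of the separate R4-R6 reaction, whose headings give no methylation state, r was 0.633 reversed and -0.179 as listed.

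Single-base changes from GTT, the strongest unmethylated sequence, show how the preference moved. Positions are counted as above, and a substitution gives the base of GTT, the position and the base of the variant. In the reversed reading, losing the G lowered the log ratio in the duplex block by more than in the unmethylated block for G11A, at -2.08 ± 0.21 against -0.85 ± 0.08, and for G11C, at -2.11 ± 0.20 against -1.31 ± 0.08. G11T was at -1.67 ± 0.20 against -1.47 ± 0.07, within counting error of each other. T13C was within counting error of GTT in unmethylated DNA, at -0.03 ± 0.09. In the same reading T13C was at -1.40 ± 0.19 in the duplex block, and it was at -2.32 ± 0.05 in the M.SssI block. The duplex fall was not particular to C, since T13G was at -0.98 ± 0.24 there, within 2 counting SE of T13C. T13G was at -0.52 ± 0.07 in the unmethylated and -0.50 ± 0.04 in the M.SssI block. T13A was at -0.36 ± 0.20 in the duplex and -0.20 ± 0.08 in the unmethylated block.
In the reversed reading T12C and T12G lay nearer to GTT in the duplex than in the unmethylated block. T12C was at -0.25 ± 0.20 in the duplex and -1.18 ± 0.07 in the unmethylated block, and T12G at -0.43 ± 0.22 and -0.96 ± 0.07. Both duplex values lay within 2 counting SE of 0. T12A was at 0.05 ± 0.22 in the duplex and -0.24 ± 0.09 in the unmethylated block, a difference within counting error. As listed, GTT itself had a duplex ratio of 0.971, and T13G raised it by 0.82 ± 0.23. G11A and G11T, at 0.14 ± 0.19 and 0.13 ± 0.19, were within counting error of GTT in that reading. T12C and T12G were then at -0.44 ± 0.20 and -0.72 ± 0.23, the latter within counting error of its unmethylated value.

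All 6 orders of the 3 listed bases, on either strand, were then compared with the unmethylated block, 12 readings in all. The log ratios were closest to those of the unmethylated block when the last listed base was put first, with r = 0.673 for the order of last, first and middle base and 0.633 for the plain reversal. The reverse complement gave 0.164 and the complement 0.110. The other 8 readings ran from -0.461 to 0.142. With the hemimethylated block these readings gave 0.676 and 0.621. The plain reversal was the closer of them with the M.SssI block, at 0.450 against 0.404, and by Spearman's rho with the unmethylated block, at 0.559 against 0.546.
The read numbers of the block behaved differently from its log ratios. Total reads per sequence were correlated with those of the unmethylated block at r = -0.565 as listed and -0.449 reversed, on the log scale. For the complement and the reverse complement r was 0.665 and 0.669. The middle listed base, which keeps its place when the bases are reversed, shows this as well. It was C in 29.2% of duplex reads (95% interval 28.5 to 29.9) and G in 19.1% (18.5 to 19.7), and it was C in 18.8% and G in 32.8% of unmethylated reads. In the M.SssI and hemimethylated blocks G also exceeded C in the middle, at 29.8% against 16.6% and at 27.0% against 18.2%. These totals and shares join bound and unbound reads, so they are not separate from binding. In unbound reads alone, C and G were at 32.8% and 20.2% in the duplex and 27.3% and 33.8% in the unmethylated block. They were at 22.4% and 32.2% in the M.SssI block, and nearly equal in the hemimethylated block, at 25.5% and 26.3%. The part of this base composition in the duplex log ratios was not tested.

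Separate effects of the 3 bases left some duplex sequences apart. The residual SD of that additive description was 0.34, against a counting SE of 0.14 (root mean square). CGC, GCG and TCG lay above it, by 0.73 ± 0.11, 0.63 ± 0.13 and 0.57 ± 0.14, and AGG and GGG below it, at -0.81 ± 0.14 and -0.62 ± 0.17. These 5 were singled out after their values were seen.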

How the data were processed

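Bound and unbound read counts per sequence, as the authors deposited them, came from 1 library per fraction, and per the labels' protocols both were analysed together. Counts were not scaled for depth. The ratio is the authors' deposited bound over unbound count, and an untitled deposited column is minus the natural log of it (called ln). How reads were counted is not given in the sources used here. The R6 samples' titles and the block headings gave the groups.

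Log ratios were natural logs of the bound over the unbound count, with 0.5 added to each, and printed ratios used the counts alone. The counting SE took the reciprocals of both counts, summed, and their square root. Changes were not centred, since all blocks shared 1 reaction. Sequences named were the ends of the order, the 5 largest rises and falls with at least 30 reads in each count, sequences with equal ends, mirror pairs with the largest contrast, small CpG classes and variants of GTT. The members, lists and readings were chosen with earlier results of these data known. Calculations were tested on 100 simulated data sets, with Python 3.11.15, numpy 2.4.6, pandas 2.3.3 and scipy 1.17.1. Alternatives covered pseudocount, minimum count, centring, fold, CpG definition, weighting and reading. Values of the table of 16-base sequences were not used here.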

Additional observations from a re-analysis of the deposited data

How the results depend on the processing

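No paired analysis was possible because each fraction has 1 library, and none could be left out for the same reason. The pseudocount (0 or 1) moved neither the median changes, the correlations, the median of sequences with equal ends nor the named changes beyond their counting intervals (Fisher's for the correlations). The deposited ratio did not move the median changes or the median of sequences with equal ends either. Removing the shift of a block changed the counts of calls, as its construction requires. Centred on sequences without CpG, 13 sequences were lower and 17 higher as listed, and 13 and 7 reversed. Centred on the median of all sequences, the counts were 13 and 19 as listed, and 5 and 14 reversed. Centred CpG classes lay at -0.076 (position 13) and -0.999 (position 10) as listed, and at -0.73 and 0.68 reversed. The class at position 12 lay at 0.19 reversed when centred, and thus changed sign, as did position 10. The median change was -1.41 as listed with at least 100 reads in each count (24 sequences) and -1.29 reversed with at least 50 (53 sequences). Without the weakest 25% of unmethylated sequences it was -1.65 as listed and -1.39 reversed, and from summed counts -1.15 in both. With at least 50 reads, CpG at position 10 gave -2.07 as listed (4 sequences) and -0.74 reversed (7 sequences), and sequences without CpG -1.42 and -1.04. When only CpG within the 3 varied bases was counted, the 56 sequences without it changed by -1.46 and -1.25. The median difference from the M.SssI block, -0.64 as listed, was -0.33 with at least 50 reads and -0.78 from summed counts. That from the hemimethylated block, -0.51 as listed and -0.41 reversed, was -0.30 from summed counts in both readings and -0.37 reversed with at least 50 reads. Weighting gave 0.82 in place of 0.91 for G as the last listed base, and the mean of both log ratios -1.36 for mirror pairs. Minimum counts and the removal of the weakest unmethylated sequences select on counts that enter the change itself, so those moves are partly built in. Apart from such construction and that of centring, the cause of these moves was not tested. Depth limits the duplex block most, since a single sequence there had a median counting SE of 0.13.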
